A study of Homo sapiens with 9 samples.

Results

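Cultures of U937 at 6 h of recovery after a short heat treatment were set against cultures taken at 0 h, just after the heat. U937 is a human lymphoma line that grows in suspension and carries features of monocytes. All heated cells had spent 15 min at 44 °C or at 42 °C and were then kept at 37 °C. The comparison uses 4 of the 9 arrays of the series, chosen by their labels: 6 h and 0 h after 44 °C, and 6 h and 0 h after 42 °C. The other 5 arrays are the 1 h and 3 h times of both temperatures and unheated control cells. They enter the signal floor, the choice of probe set for each gene and the values that place the members. The 1 h and 3 h arrays also enter an alternative fit at the end. Each condition was 1 array, so the pairs of 6 h over 0 h at 44 °C and at 42 °C share no array but are not replicates. Results are therefore read by size, and p-values from limma, which takes its spread from the temperatures, are given only as an alternative at the end. A 6 h array differs from its 0 h array both in recovery and in time in culture, and the 2 cannot be told apart here.

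Heat unfolds proteins, and the heat shock factor HSF1 then drives genes for chaperones, the proteins that refold or clear others. Much other transcription and ribosome production slows in heated cells and resumes in recovery. Stress also reaches other programmes in this setting: ATF4 drives genes for amino acid supply, NRF2 drives antioxidant genes, and interferon response genes are best known from infection.

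The 4 arrays had deposited trimmed mean signals of 109 to 191 and were scaled to a common trimmed mean of 100. After scaling, 48.3 to 52.6% of probe sets lay above a floor of 12.5, the median signal, to which lower values were raised. The ratio of 3′ to 5′ probe signals, a sign of RNA integrity, was 1.18 to 1.22 for ACTB and 0.979 to 1.08 for GAPDH. The deposited trimmed mean of the 42 °C array at 6 h was 109, against 160 at 0 h, while the 44 °C arrays had 191 at 6 h and 172 at 0 h. The part of this gap in the results was not tested beyond the alternative scalings given with the counts. All signals below are scaled, and folds are log2 of 6 h over 0 h. A gene is said to have risen or fallen when its fold was at least 2 in the same direction in both pairs.

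Of 19775 genes, 309 (1.56%) rose and 118 (0.597%) fell in both pairs. Within the 44 °C pair 673 genes (3.4%) were higher and 640 (3.24%) lower by 2-fold or more, and within the 42 °C pair 873 (4.41%) were higher and 376 (1.9%) lower. The genes higher in both make up 45.9% of those higher at 44 °C and 35.4% of those higher at 42 °C. The genes lower in both make up 18.4% of those lower at 44 °C and 31.4% of those lower at 42 °C. In either direction these were 427 genes (2.16%). Another 22 (0.111%) passed 2-fold in opposite directions, 10 of them (0.0506%) higher at 44 °C and lower at 42 °C and 12 (0.0607%) the reverse. Rises were therefore the larger set: of all genes that moved together, 72.4% rose, and 32 genes rose but 3 fell by 4-fold or more in both pairs. That split depends on scaling, since 65.9% rose after quantile normalisation and 36.7% when deposited values were used unscaled (125 rises against 216 falls). Over the 13622 genes above the floor on at least 1 of the 4 arrays, the folds of the pairs correlated with Pearson's r of 0.505 and Spearman's rho of 0.448 across genes, which are not independent points. The counts of gene lists below stand against these shares of 1.56% and 0.597%. Near the threshold, on the log2 scale, 402 genes had a smaller pair rise of at least 0.9 and 226 of at least 1.1, and 189 genes had both folds at -0.9 or lower and 74 at -1.1 or lower.

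**Figure D1:**
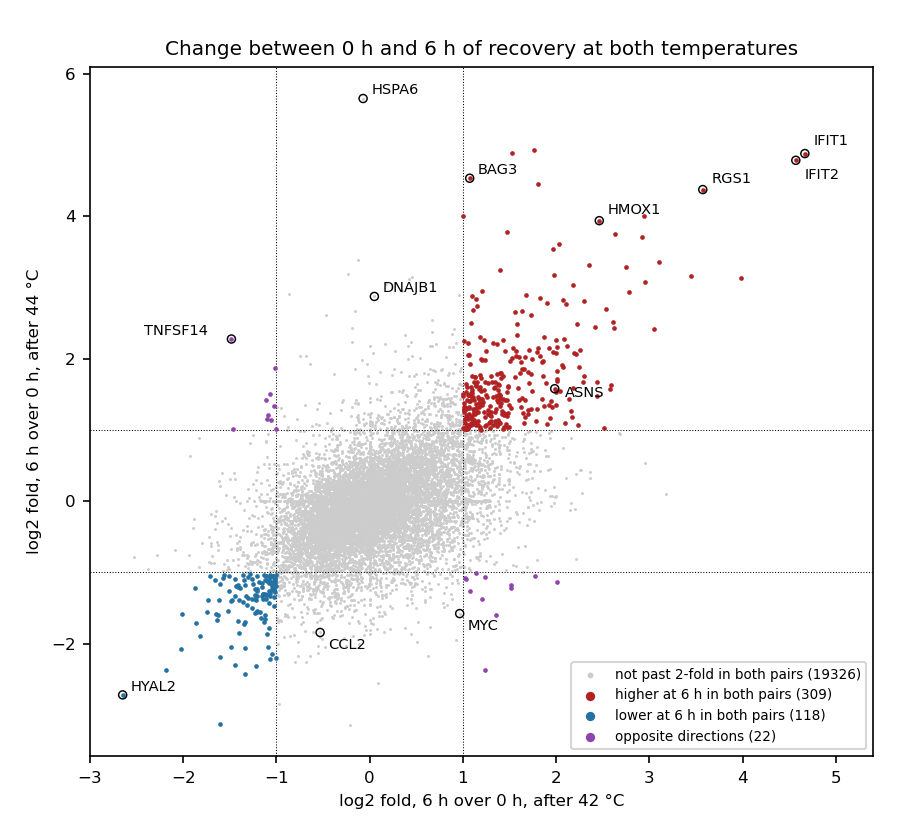
Each point is 1 of 19775 genes, by its log2 fold of 6 h over 0 h after 42 °C (x axis) and after 44 °C (y axis), with dotted lines at 2-fold. The 309 rises (red) lie at top right with IFIT1 and IFIT2 farthest out, the 118 falls (blue) lie at bottom left, and the chaperone HSPA6 stands high at 44 °C (5.65) but near 0 at 42 °C (-0.07).

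Of the 4 marker genes of this comparison 3 rose. IFIT2, an interferon-induced protein that binds RNA, was among the largest rises. The others were HMOX1, the enzyme that breaks down heme, and ASNS, which makes asparagine. CCL2, a chemokine that draws monocytes, was lower at 6 h in both pairs but passed 2-fold only at 44 °C. Its signals were 255 at 6 h against 915 at 0 h after 44 °C, and 307 at 6 h against 443 at 0 h after 42 °C. These are log2 folds of -1.84 and -0.53, and all 4 heated arrays lay below the control at 1464.

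Ranked by the smaller of the 2 pair folds, the largest rises belonged to the IFIT family. IFIT1, which binds RNA lacking the cap methylation of the cell's own messages, had a signal of 369 at 6 h after 44 °C, against the floor at 0 h, and of 319 at 6 h after 42 °C, against the floor at 0 h. Its rise was at least 29.4-fold at 44 °C and at least 25.4-fold at 42 °C. IFIT2 had 384 at 6 h against 14.0 at 0 h after 44 °C, and 298 at 6 h against the floor at 0 h after 42 °C, which are log2 folds of 4.78 and at least 4.57. Both genes were at or near the floor at 0 h, and the control was at the floor for IFIT1 and at 13.3 for IFIT2. IFIT3, a partner of the other IFIT proteins, started higher. It had 411 at 6 h against 46.9 at 0 h after 44 °C and 437 at 6 h against 27.7 at 0 h after 42 °C, with 70.1 in control cells. IFIT5 was dim but rose too, with log2 folds of at least 1.03 at 44 °C and at least 1.29 at 42 °C. IFIT2, IFIT3, IFIT1 and IFIT5 follow each other on chromosome 10 among the measured genes. Such runs of neighbours that all rose were few, and this was the one run of 4.

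Beyond the IFIT genes the interferon response was small. Of 37 measured interferon response genes 6 rose and 0 fell, the others being OAS1, which senses double-stranded RNA, and XAF1, an interferon-induced gene. OAS1 had 29.3 at 6 h against the floor at 0 h after 44 °C and 29.6 at 6 h against 14.1 at 0 h after 42 °C. Its call was lost under every other scaling, floor and probe set rule tried. The list's median log2 fold was 0.27 at 44 °C and 0.30 at 42 °C, against 0.0 over all genes in each pair. ISG15, a ubiquitin-like protein that is usually a strong interferon target, had 476 at 6 h against 322 at 0 h after 44 °C and 469.5 at 6 h against 312 at 0 h after 42 °C, under 2-fold in each. MX1, IFI44, IFI44L, IFI27, EPSTI1 and IFNB1, the gene of interferon beta, were at the floor on all 4 arrays. IFIT1, IFIT2 and IFIT3 thus had the largest folds of this list in both pairs.

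The promoters of IFIT1, IFIT3 and IFIT5 are shown because these neighbours of IFIT2 rose with it, and the ASNS, SERPINH1 and HSPA6 promoters because they hold the element of their own lists. The sequences are from RefSeq on build GRCh38.p14, on the gene's strand, 5′ to 3′. Capitals mark matches to the interferon-stimulated response element GAAANNGAAA (in either direction, so TTTCNNTTTC also counts), the ATF response element TGATGNAA and the heat shock element GAANNTTCNNGAA or its reverse complement. The IFIT1 window is chr10:89392482-89392554, the IFIT3 windows before 2 annotated starts are chr10:89327816-89327909 and chr10:89332410-89332512, and the IFIT5 window is chr10:89414498-89414567, all on the plus strand. The others are ASNS at chr7:97872444-97872501 on the minus strand, and SERPINH1 at chr11:75562152-75562214 and HSPA6 at chr1:161524441-161524503 on the plus strand.
IFIT1: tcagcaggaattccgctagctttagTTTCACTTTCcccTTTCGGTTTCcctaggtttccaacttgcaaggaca
IFIT3 first start: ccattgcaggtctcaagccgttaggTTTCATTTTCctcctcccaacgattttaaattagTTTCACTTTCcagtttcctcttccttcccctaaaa
IFIT3 second start: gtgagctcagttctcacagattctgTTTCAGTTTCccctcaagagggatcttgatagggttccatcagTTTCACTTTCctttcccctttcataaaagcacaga
IFIT5: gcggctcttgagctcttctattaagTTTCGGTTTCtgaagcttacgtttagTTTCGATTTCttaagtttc
ASNS: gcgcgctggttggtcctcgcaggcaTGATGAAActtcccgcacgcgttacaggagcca
SERPINH1: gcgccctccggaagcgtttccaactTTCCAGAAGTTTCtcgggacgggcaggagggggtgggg
HSPA6: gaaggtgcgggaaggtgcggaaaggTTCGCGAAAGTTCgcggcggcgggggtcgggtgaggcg

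Each of the IFIT windows holds 2 copies of the interferon element. Within 250 bases upstream of a start, 3.02% of 35116 RefSeq promoters hold that element, 3.14% the ATF element and 0.441% the heat shock element. The interferon element was found for 3 of the 5 interferon genes that rose and have a promoter in the table, and for 20 of 30 measured genes of the list, ISG15 and MX1 among them. For the heat shock element the counts were 1 of 7 chaperone genes that rose and 7 of 28 measured, and for the ATF element 1 of 7 and 6 of 26 in the integrated stress response list. The shares count promoters, while the list counts are of genes with a match in any of their promoters. The 2 are therefore not on the same footing. A match is a run of letters and not a shown binding site.

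Heat shock chaperones rose in 8 cases and fell in 0 of 31 measured, with median log2 folds of 0.85 at 44 °C and 0.40 at 42 °C. The genes that rose were CRYAB, ZFAND2A, DNAJA4, HSPA4L, SERPINH1, HSPH1, HSPA13 and BAG3. CRYAB, a small heat shock protein, had 175 at 6 h against 17.7 at 0 h after 44 °C and 115 at 6 h against 22.5 at 0 h after 42 °C. SERPINH1, the collagen chaperone whose promoter is shown above, had 371 at 6 h against the floor at 0 h after 44 °C and 506 at 6 h against 176 at 0 h after 42 °C. ZFAND2A, a zinc finger protein that works at the proteasome, had 4119 at 6 h against 189 at 0 h after 44 °C and 3111 at 6 h against 891 at 0 h after 42 °C. In all of these the fold was larger at 44 °C, where 13 members passed 2-fold, than at 42 °C, where 10 did.

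For several chaperones the temperatures were further apart at 0 h than at 6 h. HSPA6, a strictly inducible HSP70 whose probes may also read its near-identical relative HSPA7, had 6587 at 6 h against 131 at 0 h after 44 °C, but 4525 at 6 h against 4751 at 0 h after 42 °C, with 138 in control cells. DNAJB1, an HSP40 that works with HSP70, had 7378 at 6 h against 1008 at 0 h after 44 °C, and 6359 at 6 h against 6139.6 at 0 h after 42 °C. At 6 h the 2 temperatures were thus within 2-fold of each other for both genes, while at 0 h the 42 °C array was already high and the 44 °C array was near the control. BAG3, a partner of HSP70, followed the same order with 3602 at 6 h against 156 at 0 h after 44 °C and 3347 at 6 h against 1591 at 0 h after 42 °C. HSPH1, a nucleotide exchange factor of HSP70, had 7209 at 6 h against 1812 at 0 h after 44 °C and 8914 at 6 h against 3904 at 0 h after 42 °C. BAG3, HSPH1 and HSPA4L no longer passed 2-fold in both pairs without scaling. HSPA5 and HSP90AB1, chaperones that cells make in quantity without stress, stayed under 2-fold with log2 folds of -0.10 and 0.05 at 44 °C and of 0.10 and 0.33 at 42 °C.

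The integrated stress response list gave 8 rises and 0 falls of 32 measured, with medians of 0.53 at 44 °C and 0.37 at 42 °C. SLC7A11, the cystine importer, had 559.6 at 6 h against 134 at 0 h after 44 °C and 497 at 6 h against 108 at 0 h after 42 °C. CTH, which makes cysteine, had 369 at 6 h against 87.0 at 0 h after 44 °C and 284 at 6 h against 72.6 at 0 h after 42 °C. ASNS had 340.1 at 6 h against 114 at 0 h after 44 °C and 371 at 6 h against 93.6 at 0 h after 42 °C. In these 3 genes the 0 h arrays were the low ones: the control had 474 for SLC7A11, 300.1 for CTH and 309 for ASNS, all within 2-fold of the 6 h arrays. The ASNS call was lost when the median over its probe sets was used, at a mean log2 fold of 0.89. PSAT1, of serine synthesis, and SLC38A2, an importer of neutral amino acids, rose with log2 folds of 1.21 and 1.24 at 44 °C and of 1.04 and 1.22 at 42 °C. VLDLR, a lipoprotein receptor, also rose. SESN2, an inhibitor of the growth kinase mTORC1, had 315 at 6 h against 76.8 at 0 h after 44 °C and 311 at 6 h against 105 at 0 h after 42 °C, with 101 in control cells.

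DDIT4, a further inhibitor of mTORC1, ended more than 2-fold above the control, as did SESN2. DDIT4 had 879 at 6 h against 72.0 at 0 h after 44 °C and 793 at 6 h against 193 at 0 h after 42 °C, with 307 in control cells. ATF4 itself, the transcription factor of the pathway, had log2 folds of -0.14 at 44 °C and -0.31 at 42 °C. Its death-linked targets did not rise in both: DDIT3 had 0.21 at 44 °C and -0.24 at 42 °C, and PPP1R15A, which restarts translation, had 1.41 at 44 °C and -0.28 at 42 °C. Of 15 tRNA synthetases, which ATF4 also drives in part, 0 rose and 0 fell. ATF3 and CHAC1, also of the integrated stress response list, passed 2-fold only at 44 °C. Their log2 folds were 2.23 and 1.39 at 44 °C and 0.45 and 0.38 at 42 °C. Most of the genes of this list that rose in both pairs supply amino acids or restrain mTORC1. The share of such members in the whole list was not counted, so this is not a result about them.

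HMOX1 was the 15th largest rise. Its signals were 1449 at 6 h against 94.7 at 0 h after 44 °C and 1158 at 6 h against 210.0 at 0 h after 42 °C, or log2 folds of 3.94 and 2.46. Both 6 h arrays were far above the control at 114. Of 20 NRF2 targets 3 rose and 0 fell, the others being SLC7A11 and SRXN1, which restores oxidised peroxiredoxins. SRXN1 had 570.2 at 6 h against 213 at 0 h after 44 °C and 458 at 6 h against 151 at 0 h after 42 °C. NQO1, GCLC and GCLM, which are widely used NRF2 readouts, had log2 folds of 0.45, 0.38 and 0.16 at 44 °C and of 0.39, 0.18 and 0.03 at 42 °C. HMOX2, the constitutive relative of HMOX1, fell, with 124 at 6 h against 374 at 0 h after 44 °C and 159 at 6 h against 345 at 0 h after 42 °C. The 2 heme oxygenases thus moved in opposite directions in both pairs.

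**Figure D2:**
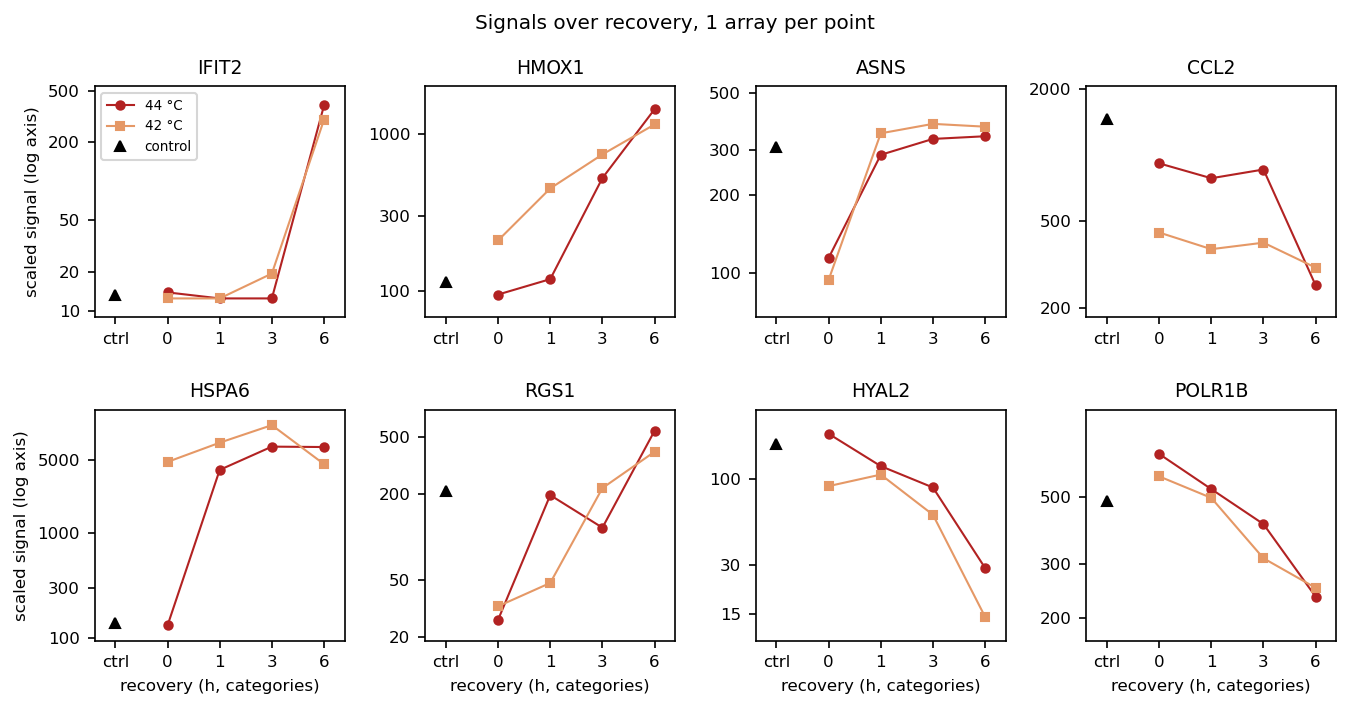
Scaled signals (log axis, 1 array per point) over 0, 1, 3 and 6 h of recovery after 44 °C (red) and 42 °C (orange), with the control as a triangle, for 8 genes. IFIT2 stays at or below 19.5 until 3 h and reaches 384 and 298 at 6 h, HMOX1 climbs to 1449 and 1158, ASNS is back near the control of 309 by 1 h, and POLR1B declines to 235 and 251.

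Among the 15 largest rises were several receptors and signalling genes that belong to no stress list. RGS1, which switches off G protein signals, had 549 at 6 h against 26.5 at 0 h after 44 °C and 392 at 6 h against 32.9 at 0 h after 42 °C, and the control at 209.9 lay between. IL2RB, a chain of the receptors for interleukins 2 and 15, had 341 at 6 h against 33.4 at 0 h after 44 °C and 435 at 6 h against 50.5 at 0 h after 42 °C, with 41.2 in control cells. MBNL2, a splicing regulator, had 689 at 6 h against 76.8 at 0 h after 44 °C and 800.4 at 6 h against 73.5 at 0 h after 42 °C. In each, every 6 h array was above every 0 h array. IL7R, the interleukin 7 receptor, had 164 at 6 h against the floor at 0 h after 44 °C and 130.3 at 6 h against 17.2 at 0 h after 42 °C. HAVCR2, an inhibitory receptor of immune cells, had 95.6 at 6 h after 44 °C and 86.0 at 6 h after 42 °C, against the floor at 0 h in both. Other probe sets of HAVCR2 had log2 folds from 0.00 to 2.51 at 44 °C and from 0.48 to 2.41 at 42 °C. Those of MBNL2 ranged from 0.87 to 4.17 at 44 °C and from 0.00 to 2.86 at 42 °C. ATOSA had 431 at 6 h against 75.5 at 0 h after 44 °C and 332 at 6 h against 54.5 at 0 h after 42 °C.

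The remaining 5 of the 15 had the floor on at least 1 array at 0 h, and their folds at 44 °C are therefore bounds. These were MAML2, a Notch coactivator, COL1A1, a collagen chain, FAM13A, CACNA1G, a calcium channel, and TDRG1. Each had a log2 fold of at least 2.69 at 44 °C. The probe sets of 2 of them disagreed. Other COL1A1 probe sets had log2 folds from 0.00 to 1.96 at 44 °C and from -0.37 to 1.94 at 42 °C, and another CACNA1G probe set had -1.66 at 42 °C. Of the 309 rises, 77 had the floor on at least 1 of the 4 arrays.

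**Figure D3:**
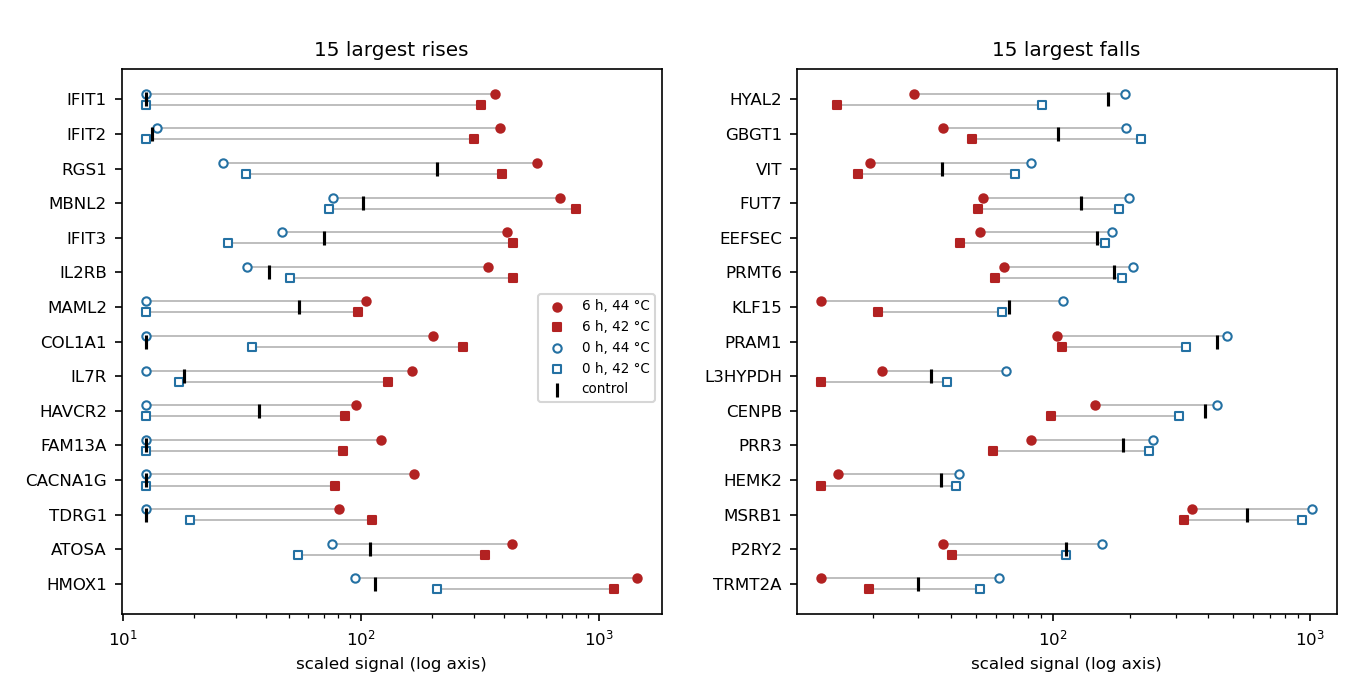
Scaled signals (log axis) of the 15 largest rises (left) and 15 largest falls (right), with 6 h arrays filled, 0 h arrays open, circles for 44 °C, squares for 42 °C and a bar for the control. In every line both 6 h arrays lie on one side of both 0 h arrays, and for IFIT1, IFIT2 and FAM13A the control lies with the 0 h arrays.

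Immediate early genes respond to stimuli within minutes. Of 28 measured 3 rose and 0 fell in both pairs, but 11 were higher and 2 lower at 44 °C, and 6 higher and 1 lower at 42 °C. JUN, a subunit of AP-1, had 959.7 at 6 h against 143 at 0 h after 44 °C and 478 at 6 h against 214 at 0 h after 42 °C. KLF6, a zinc finger factor, and NR4A1, an orphan nuclear receptor, rose with log2 folds of 1.13 and 1.31 at 44 °C and of 1.30 and 1.52 at 42 °C. All 3 calls were lost without scaling, and those of KLF6 and NR4A1 also with the median over probe sets. IER5, known as a feedback partner of HSF1, had 4894 at 6 h against 471 at 0 h after 44 °C, but 3506 at 6 h against 3830.0 at 0 h after 42 °C, in the manner of HSPA6. MYC, the growth factor target and transcription factor, had 859 at 6 h against 2567 at 0 h after 44 °C, but 1199.8 at 6 h against 614 at 0 h after 42 °C, with 3123 in control cells. Its folds of -1.58 and 0.97 thus point in opposite directions, although all heated arrays lay below the control. MXD1, which competes with MYC for its partner MAX, rose with log2 folds of 2.11 at 44 °C and 1.25 at 42 °C, a call lost without scaling.

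Growth arrest genes gave 5 rises and 0 falls of 15 measured, with medians of 1.15 at 44 °C and 0.77 at 42 °C. TOB1, an antiproliferative protein, had 206 at 6 h against 59.7 at 0 h after 44 °C and 210.1 at 6 h against 63.2 at 0 h after 42 °C. BTG1, of the same family, had 958 at 6 h against 396 at 0 h after 44 °C and 1200.1 at 6 h against 369 at 0 h after 42 °C. CDKN1A, the inhibitor p21, was uneven, with 246 at 6 h against 15.4 at 0 h after 44 °C and 159.7 at 6 h against 79.5 at 0 h after 42 °C. CDKN1C and CDKN2D, which also inhibit cyclin-dependent kinases, were the remaining rises, and CDKN2B and GADD45B passed 2-fold upward at 44 °C and downward at 42 °C. CDKN1A and CDKN1C lost their calls under quantile normalisation, without scaling and with log2 of signal plus 16. CDKN2D lost its call with log2 of signal plus 16 and with the median over probe sets. CDKN1C was also lost with a floor at the 65th percentile and with the median over probe sets. The filter on genes above the floor on all 4 arrays removed CDKN1C too. With a floor at the 65th percentile the list's median of pair means was 0.18, and with the median over probe sets 0.23, against 0.57. CCNG2, an atypical cyclin of resting cells, had 357 at 6 h against 81.8 at 0 h after 44 °C and 340.2 at 6 h against 71.2 at 0 h after 42 °C. With SESN2 and CDKN1A it made up the 3 rises among 22 p53 targets. Of 29 S phase genes and 32 mitosis genes, which mark dividing cells, 0 passed 2-fold in both pairs in either direction.

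Among genes that promote cell death the count of rises was 1, too few to set against the 1.56% over all genes. Medians of pair means were 0.0 for proapoptotic genes, 0.18 for antiapoptotic genes and 0.0 over all genes. Of 27 proapoptotic genes 1 rose, BNIP3L, which marks mitochondria for removal, with 608 at 6 h against 226 at 0 h after 44 °C and 525 at 6 h against 245 at 0 h after 42 °C. PMAIP1, the BH3 protein NOXA, had 1335 at 6 h against 326 at 0 h after 44 °C and 1004 at 6 h against 731 at 0 h after 42 °C, past 2-fold only at 44 °C. Of 16 antiapoptotic genes PIM1, a survival kinase, and BCL2A1, of the BCL2 family, rose and TNFAIP8 fell. The rises of BNIP3L, PIM1 and BCL2A1 were lost without scaling, and the fall of TNFAIP8 both without scaling and with quantile normalisation. BCL2A1 had 1454 at 6 h against 493 at 0 h after 44 °C and 1567 at 6 h against 729 at 0 h after 42 °C. On the probe sets used, MCL1, BCL2, BCL2L1, BCL2L11 and BIRC5 stayed under 2-fold in both pairs. Their log2 folds lay between -0.73 and 0.60 at 44 °C and between -0.47 and 0.46 at 42 °C. Other probe sets reached 1.14 at 44 °C and 1.81 at 42 °C for MCL1. For BCL2 they reached -1.17 at 42 °C, and for BCL2L11 -1.28 at 44 °C. CASP8, the initiator caspase of death receptors, had 0.87 at 44 °C and 1.66 at 42 °C.

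**Figure D4:**
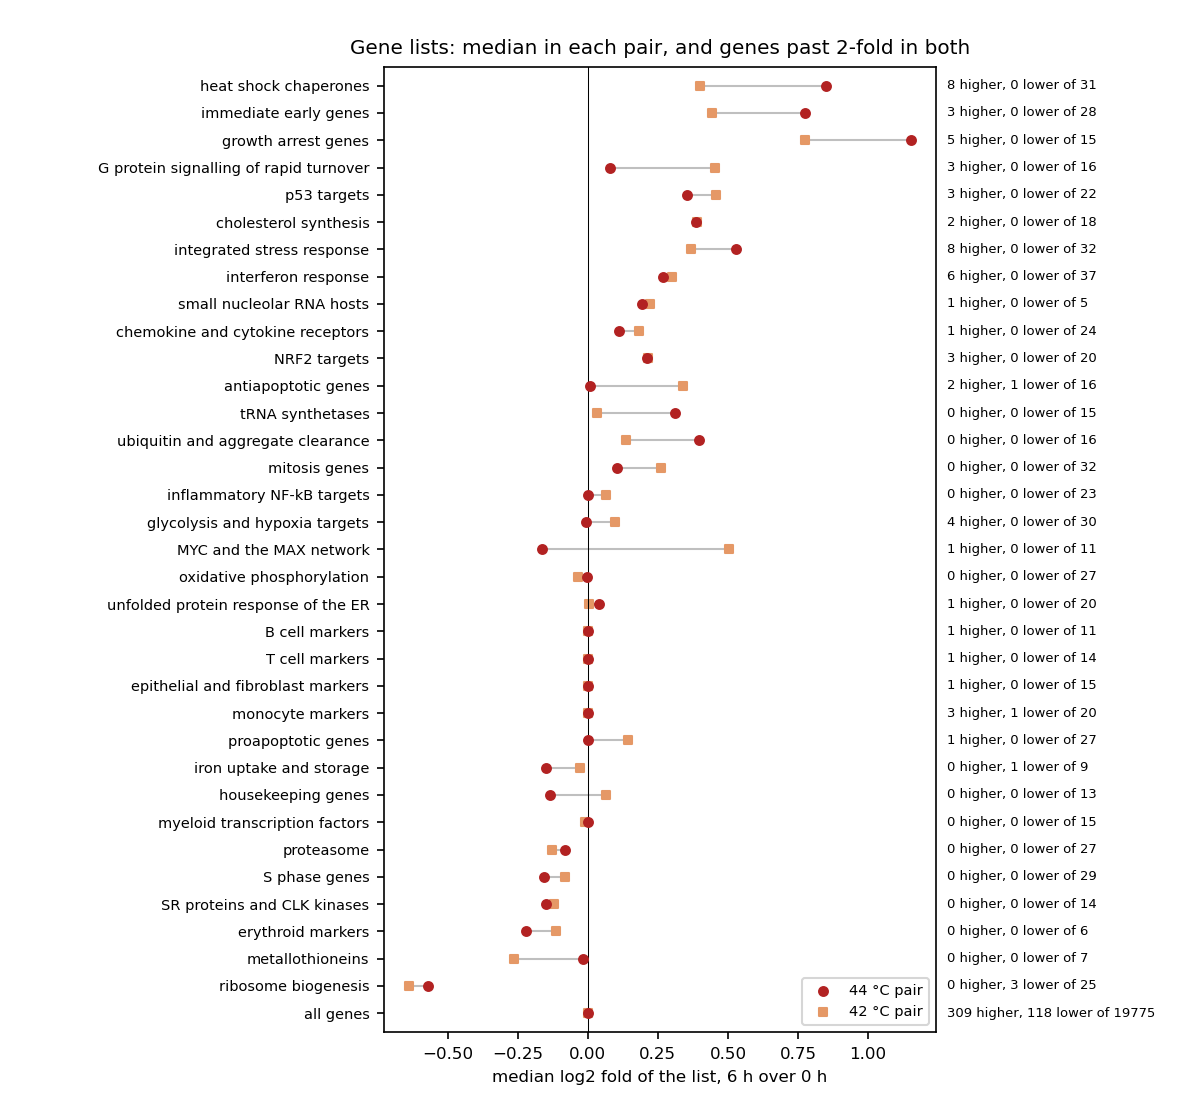
Median log2 fold (6 h over 0 h) of each gene list at 44 °C (circles) and 42 °C (squares), with its counts of genes past 2-fold in both pairs. Chaperones (0.85 and 0.40) and growth arrest genes (1.15 and 0.77) have medians above 0 in both pairs, ribosome biogenesis (-0.57 and -0.64) below 0 in both, and all genes sit at 0.

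On scaled arrays falls were fewer than rises. HYAL2, a hyaluronidase of the cell surface, had 28.8 at 6 h against 189.8 at 0 h after 44 °C and 14.5 at 6 h against 90.9 at 0 h after 42 °C, with 163 in control cells, or log2 folds of -2.72 and -2.65. GBGT1, a glycosyltransferase, had 37.4 at 6 h against 193 at 0 h after 44 °C and 48.5 at 6 h against 221 at 0 h after 42 °C. FUT7, which makes selectin ligands on leukocytes, had 53.4 at 6 h against 198 at 0 h after 44 °C and 51.1 at 6 h against 181 at 0 h after 42 °C. In all 3 the 6 h arrays were below the control as well as below 0 h. MSRB1, a selenoprotein that repairs oxidised methionine, was the brightest of the 15 largest falls. It had 349 at 6 h against 1016 at 0 h after 44 °C and 324 at 6 h against 929.9 at 0 h after 42 °C. EEFSEC, the elongation factor that inserts selenocysteine, had 51.9 at 6 h against 169.5 at 0 h after 44 °C and 43.7 at 6 h against 159 at 0 h after 42 °C. PRMT6, an arginine methyltransferase of histones, CENPB, a centromere protein, PRAM1, an adaptor of myeloid cells, P2RY2, a nucleotide receptor, and TRMT2A, a tRNA methyltransferase, were also among the 15, with VIT, KLF15, L3HYPDH, PRR3 and HEMK2. KLF15, L3HYPDH and HEMK2 reached the floor at 6 h at 1 temperature. Another probe set of KLF15 had log2 folds of 0.00 at 44 °C and 0.58 at 42 °C, and another of HEMK2 had 0.00 and 0.64. KLF15, HEMK2 and PRR3 lost their calls with the median over probe sets. With a floor at the 65th percentile KLF15, L3HYPDH, HEMK2 and TRMT2A lost theirs.

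Ribosome biogenesis was the list with the lowest median of those drawn, -0.57 at 44 °C and -0.64 at 42 °C. Of 25 measured genes 0 rose and 3 fell in both pairs, while 7 were past 2-fold lower at 44 °C and 5 at 42 °C. POLR1A, the large subunit of RNA polymerase I, which transcribes ribosomal RNA, had 53.9 at 6 h against 138 at 0 h after 44 °C and 52.0 at 6 h against 129 at 0 h after 42 °C. POLR1B, its second subunit, had 235 at 6 h against 697 at 0 h after 44 °C and 251 at 6 h against 587 at 0 h after 42 °C. RRP12, needed for export of ribosomal subunits, had 217 at 6 h against 452 at 0 h after 44 °C and 172 at 6 h against 491 at 0 h after 42 °C. All 3 lost their calls when the median over probe sets was used, and RRP12 then had a mean log2 fold of 0.20. NPM1, FBL and NCL, abundant nucleolar proteins, had log2 folds of -0.17, -0.24 and -0.09 at 44 °C and of 0.10, -0.18 and -0.37 at 42 °C. These abundant members thus stayed under 2-fold in both pairs.

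Several other lists showed 0 genes past 2-fold in both pairs in either direction. These were 13 housekeeping genes, 27 genes of oxidative phosphorylation, 27 of the proteasome, 16 of ubiquitin and aggregate clearance, 14 SR proteins and CLK kinases, 7 metallothioneins and 23 inflammatory NF-kB targets. In cholesterol synthesis and its control, STARD4 and MSMO1 rose of 18 measured, and both calls were lost without scaling. Among glycolysis and hypoxia targets 4 of 30 rose: ADM, a vasodilator peptide, ANKRD37, SLC2A3, a glucose transporter, and BNIP3L. The list's median log2 fold was -0.01 at 44 °C and 0.10 at 42 °C. SLC2A3 and BNIP3L lost their calls without scaling, ANKRD37 with the median over probe sets and ADM with a floor at the 65th percentile. ADM had 68.0 at 6 h against the floor at 0 h after 44 °C and 127 at 6 h against 23.8 at 0 h after 42 °C. DNAJB9, a chaperone of the endoplasmic reticulum, was the single rise among 20 genes of the unfolded protein response, with 715 at 6 h against 142 at 0 h after 44 °C and 428 at 6 h against 143 at 0 h after 42 °C.

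Markers of the labelled cell type were present in part. Of 20 monocyte and myeloid markers 15 were above the floor on at least 1 of the 4 arrays, while CD14, FCGR1A, S100A12, CD163 and MPO were at the floor on all. Their summed signal was 9213 at 6 h against 12351 at 0 h after 44 °C and 8883 at 6 h against 13226 at 0 h after 42 °C. The control sum was 10898. Bright members weigh most in such sums, and the list's median log2 fold was 0.0 in each pair. FCGR2A, an antibody receptor, CD86, a costimulator, and MS4A7 rose, and PRTN3, a granule protease, fell, with 361 at 6 h against 945 at 0 h after 44 °C and 386 at 6 h against 1023 at 0 h after 42 °C. All 3 rises were lost without scaling and with the median over probe sets, and that of CD86 also with each other floor. In such bulk samples fewer cells with a transcript and less of it per cell cannot be told apart. Of 14 T cell markers 1 rose, IL7R, and CD3E, CD3G, CD247, CD8A, CD8B and TRAT1 were at the floor on all 9 arrays. Among 11 B cell markers FCER2 rose, among 15 epithelial and fibroblast markers COL1A1 rose, and of 6 erythroid markers 0 did.

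Where a rise began relative to unheated cells differed between genes. Of 309 rises, 145 (46.9%) had both 6 h arrays at least 2-fold above the control with the 0 h arrays not 2-fold below it. IFIT1, IFIT2, HMOX1, IL2RB and DDIT4 were among them. For IFIT1, with its control at the floor, and IFIT2, with its control at 13.3, no 0 h array could lie 2-fold below it. The same holds for any gene with its control near the floor, and such genes were not taken out of the 145. Another 32 (10.4%) had both 0 h arrays at least 2-fold below the control and the 6 h arrays not 2-fold above it. These include RGS1, SLC7A11, CTH, ASNS and JUN. HAVCR2 alone met both, and 131 met neither. TUBA1A, an alpha tubulin chosen after its values were seen, whose probes may also read close relatives, was a clear case of return, with 2851 at 6 h against 645 at 0 h after 44 °C and 2921 at 6 h against 768 at 0 h after 42 °C, and 2833 in control cells. By any amount, 204 rises (66.0%) had both 0 h arrays below the control and 289 (93.5%) both 6 h arrays above it. The falls mirrored this: 78 (66.1%) had both 0 h arrays above the control and 111 (94.1%) both 6 h arrays below it. Genes were chosen by a gap between 0 h and 6 h, which by itself favours a control lying between. These shares are therefore not a result about where changes began or ended. Of the 118 falls, 47 had both 6 h arrays at least 2-fold below the control, 7 had both 0 h arrays at least 2-fold above it and 64 met neither. The 1 control array stands behind all of these counts.

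**Figure D5:**
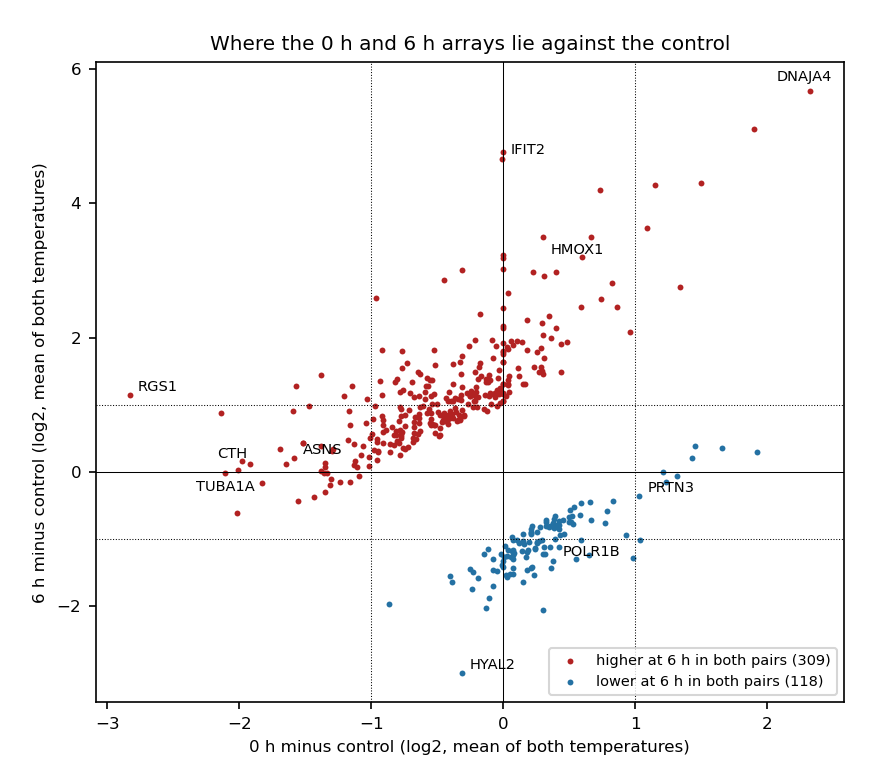
For the 309 rises (red) and 118 falls (blue), the mean log2 difference from the control of the 0 h arrays (x axis) and of the 6 h arrays (y axis), with dotted lines at 2-fold. IFIT2 sits at 0 on the x axis and above 4 on the y axis, while RGS1, CTH, TUBA1A and ASNS lie left of the vertical line at 2-fold below the control.

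The times between gave the pace. After 44 °C the 309 rises had made a median of 36.4% of their log2 change by 1 h and 53.9% by 3 h, and after 42 °C a median of 47.7% by 1 h and 75.6% by 3 h. At 3 h, 233 of the 309 were further along at 42 °C than at 44 °C. The 6 h array was the highest of the 4 times for 282 rises after 44 °C and 231 after 42 °C. IFIT2 departed from this course: its signals at 0, 1, 3 and 6 h were 14.0, 12.5, 12.5 and 384 after 44 °C and 12.5, 12.5, 19.5 and 298 after 42 °C, so nearly all of its change came between 3 and 6 h. ASNS did the opposite, with 114, 288, 332 and 340.1 after 44 °C and 93.6, 349, 380.2 and 371 after 42 °C. The 118 falls had made a median of 31.6% by 1 h and 48.9% by 3 h after 44 °C, and 25.8% by 1 h and 59.1% by 3 h after 42 °C. These shares use the same 0 h and 6 h arrays that chose the genes, so they describe the course between those ends.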

How the data were processed

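RNA of 9 U937 samples was measured on Affymetrix Human Genome U133 Plus 2.0 arrays, 1 array per condition. The deposited values are intensity values on a linear scale for each probe set, which are MAS5 signals per the submitters' processing notes. The scaling target is not given in the sources used here. Groups came from the sample labels.

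Of 54675 probe sets, 54613 are not controls. Arrays were brought to a trimmed mean of 100 over these (2% trimmed at each end) by factors of 0.474 to 0.989. Signals below the median over all arrays (12.5) were set to that floor before log2, so folds that involve the floor are bounds. Of the probe sets, 41097 had 1 symbol in the platform annotation, 1801 several and 11777 none. For each gene with its own probe sets the one with the highest mean over the 9 arrays was used, giving 19775 genes. Promoter sequences and gene order came from RefSeq tables. Work was done in Python 3.11.15 with numpy 2.4.6 and pandas 2.3.3, and limma 3.58.1 in R 4.3.3. The size rule and the limma fit were tried on simulated data. Changes were planted only in genes well above the floor and were equal at both temperatures. The trial therefore does not cover dim genes or changes that differ between temperatures.

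A gene was called when its log2 fold of 6 h over 0 h was at least 1 in size, with the same sign, at both temperatures. No test was run as the main result, since the temperatures are conditions and not replicates. Precision is limited by the number of arrays. Named genes were the 15 largest rises and 15 largest falls by the smaller pair fold, in which no other probe set above the floor had an opposite mean fold of 0.5 or more, up to 4 called members of each of 35 lists, up to 8 genes with opposite signs, and a fixed set of stress and cell death genes. Clone, frame and locus names, histones and immunoglobulins were left out of the largest changes. Other list members are given to describe their list and were picked after their values were seen. The genes and lists were chosen with earlier results of these data known. Alternatives were quantile normalisation, no scaling, other floors, log2 of signal plus 16, a filter on low values, the median over probe sets, 1.5-fold and 3-fold rules, and limma with time and temperature as terms.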

Additional observations from a re-analysis of the deposited data

Results flagged for a closer look

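Genes past 2-fold in opposite directions at the 2 temperatures stood out because the 44 °C pair moved one way and the 42 °C pair the opposite way. Of the 22, the 8 with the largest smaller fold are given as log2 folds of 6 h over 0 h, for 44 °C and then for 42 °C. The difference between temperatures was not tested, with 1 array per condition. TNFSF14, a TNF family ligand, had 2.27 at 44 °C and -1.48 at 42 °C. Its signals were 295 at 6 h against 61.0 at 0 h after 44 °C and 116 at 6 h against 324 at 0 h after 42 °C. Another probe set of TNFSF14 had 2.32 at 44 °C but -0.26 at 42 °C, under 2-fold there. CCL20, a chemokine, had 1.42 at 44 °C and -1.12 at 42 °C, and its 42 °C array at 6 h was at the floor. The other 6 were lower at 44 °C and higher at 42 °C. GNAO1, a G protein subunit, had -2.37 and 1.24. SUZ12P1, a pseudogene, had -1.61 and 1.35. ZNF784 had -1.37 and 1.21. NRROS, a partner of latent TGF-beta in myeloid cells, had -1.22 and 1.51. ST3GAL2, a sialyltransferase, had -1.17 and 1.52, and other probe sets of it had log2 folds from -1.18 to 0.31 at 44 °C and from -0.07 to 0.46 at 42 °C. CCDC18-AS1 had -1.14 and 2.01. All but TNFSF14 and ST3GAL2 had signals under 100 on each of the 4 arrays. Among the growth arrest genes, CDKN2B had 1.33 and -1.02 and GADD45B had 1.15 and -1.10.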

How the results depend on the processing

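Counts follow as rises and falls in both pairs, against 309 and 118. Quantile normalisation gave 271 and 140, a filter on genes above the floor on all 4 arrays 232 and 107, the median over probe sets 220 and 88, and a floor at the 65th percentile 208 and 87. With no scaling there were 125 and 216, with 207 higher and 2130 lower at 42 °C. The median fold at 42 °C of genes above the floor was then -0.58. A floor at the 25th percentile gave 572 and 422 (57.5% rises), with 1741 higher and 2169 lower at 44 °C, 2515 and 1816 at 42 °C and 515 opposite. With a floor at the 65th percentile there were 388 lower at 44 °C, 533 higher and 206 lower at 42 °C and 6 opposite. With log2 of signal plus 16 there were 196 and 59, with 351 lower at 44 °C, 550 higher and 192 lower at 42 °C and 5 opposite. The 1.5-fold rule gave 867 and 671 (56.4% rises), with 1537 and 2073 at 44 °C, 2252 and 1534 at 42 °C and 210 opposite. The 3-fold rule gave 74 and 9 (89.2% rises), with 221 and 101 at 44 °C, 194 and 47 at 42 °C and 0 opposite. Fewer or more dim genes can pass under another floor or rule by construction, and the cause of the other shifts was not tested.

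limma on the 4 arrays, with 1 residual degree of freedom, called 2 rises (IFIT1 and IFIT2, adjusted p = 0.0277 each) and 0 falls, against 1399 and 1344 at an unadjusted p under 0.05. On the 8 heated arrays it called 556 and 456, of which 245 and 101 also passed 2-fold in both pairs. All of these limma counts hold only genes whose folds had the same sign in both pairs. Of 55 named rises, 53 kept their call with a floor at the 25th percentile, 49 with quantile normalisation, 49 with the 65th percentile floor, 44 with log2 of signal plus 16, 42 with the filter, 44 with the median over probe sets, 32 with no scaling and 25 with the 3-fold rule. Of 21 named falls, in the same order, 21, 20, 17, 19, 18, 15, 19 and 9 did. RRP12 reversed with the median over probe sets, to a mean log2 fold of 0.20. The control has 1 array and no recovery time, and signals near the floor carry no order.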
